A study of Homo sapiens and Mus musculus with 9 samples.

Results

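The transcripts with the highest RPKM in fed mouse liver were compared between separate libraries of fed mice, of fasted mice and of fasted mice with a trans-RNA directed at ATF4. They were chosen by their level in the fed library, as all transcripts with at least 1000 RPKM (reads per 1000 nt of transcript and per 1000000 reads). That gave 48 of the 20100 transcripts listed in at least 1 liver library. The rule also leaves out 4 transcripts by name, but these lay between 12.1 and 388 RPKM in the fed library, so none was removed by it. The fed values therefore define the set and are given as a description. Just inside the threshold lay transcripts at 1003, 1027 and 1122 RPKM, and just outside it transcripts at 959, 930 and 927.

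The 3 liver libraries are RNA-seq of polyA RNA from wild-type mice, with 1 library per group. One is of fed mice, one of fasted mice, and one of fasted mice with transfection of a trans-RNA against ATF4, labelled trans1. How many animals each holds, their age, sex and strain, and how long they fasted are not given in the sources used here. Fasted mice given an unrelated RNA are not among the groups, and the trans-RNA and the act of transfection cannot be told apart. The other 6 libraries of the series come from the human embryonic kidney line HEK293, and 4 of them are ribosome profiling (Ribo-seq) libraries that bear on these transcripts at one point. With 1 library per group no difference could be tested against the spread between animals, and no p-value was computed.

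Hepatocytes devote much of their mRNA to proteins secreted into the blood, such as carriers, apolipoproteins, protease inhibitors and clotting factors, so polyA RNA of liver is dominated by few species. Fasting shifts the liver from storing fuel to releasing glucose and oxidising fatty acids. ATF4 is a stress-induced transcription factor that controls genes of amino acid supply, and its own translation is governed by upstream frames. A trans-RNA is an RNA designed to pair with an mRNA and act on where its translation starts.

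The tables used here do not pair mouse transcripts with symbols, so the members are given by transcript ID or by their rank in the fed library, where rank 1 is the highest. For the same reason the liver identity of the samples was not checked against marker genes, and no pathway list was applied. No mouse sequence was at hand to print.

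Nearly all deposited RPKM values equal a whole number of reads divided by a whole number of nucleotides and by 1 depth per library. The smallest depths found this way were 11475229 reads in the fed library, 10807868 in the fasting library and 12788676 in the library with trans-RNA. The values came out whole, within a relative tolerance of 4e-15, for 99.9% of the transcripts listed in each library. Members held between 7476 and 1970990 reads in the fed library, between 1513 and 2192747 in fasting, and between 6229 and 2334621 in fasting with trans-RNA. Their counting error is therefore small: the exact 95% (Clopper-Pearson) interval of a log2 ratio of reads was at most 0.078 to either side for any member and comparison. These intervals cover counting error only and say nothing of the variation between animals, which was not measured.

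The levels among the 48 members were very unequal. In the fed library 8 lay at 5000 RPKM or more, 19 from 2000 to 5000 and 21 from 1000 to 2000, with a median of 2061. The highest member was 44.0 times the lowest in fed, 207 times in fasting and 125 times in fasting with trans-RNA. In fed the threshold itself sets the lower end, so nothing is read from the wider range in the fasted libraries.

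**Figure D1:**
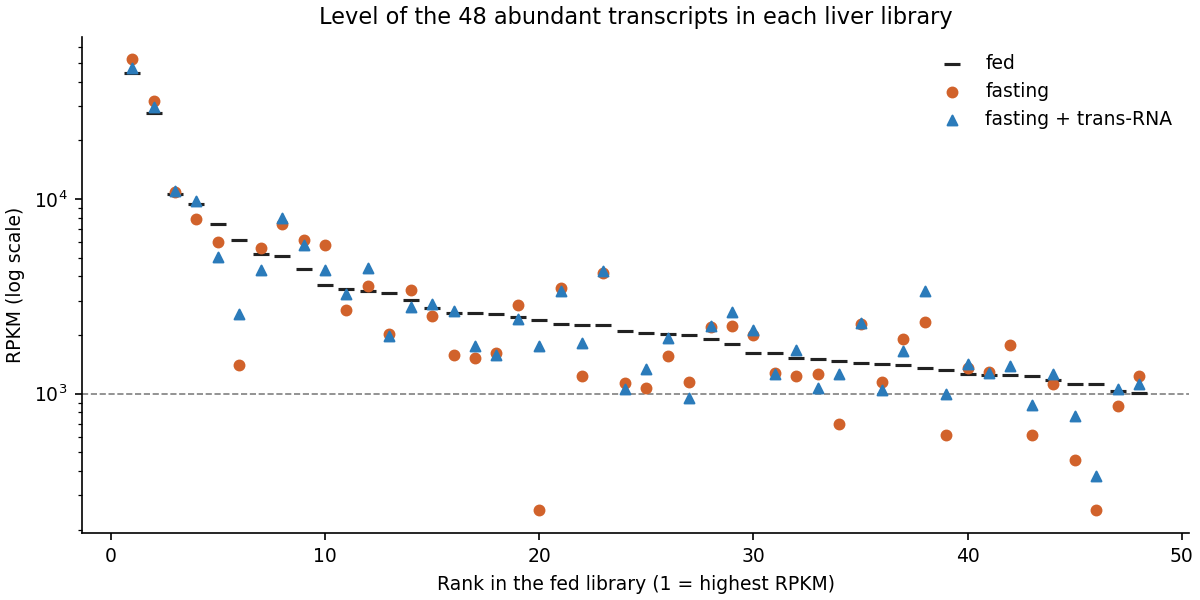
RPKM on a log axis against the rank in the fed library for the 48 members, with a bar for fed, a circle for fasting and a triangle for fasting with trans-RNA, each from 1 library. The dashed line is the threshold of 1000 RPKM, and 7 circles and 5 triangles lie below it. The member of rank 20 stands lowest relative to its neighbours in fasting, at 253 RPKM.

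A pair of transcript IDs stood far above all others in RPKM in each library. ENSMUST00000038863 was at 44109 RPKM in fed, 52102 in fasting and 46881 in fasting with trans-RNA. ENSMUST00000030127 was at 27586, 31904 and 29668 RPKM in the same order. Both held ranks 1 and 2 in all 3 libraries, and both were lowest in fed and highest in fasting. These IDs were singled out after their values were seen. Each liver library gives 1 value per transcript, and the values are levels of reads assigned to these IDs. Whether these reads covered the whole of each transcript or piled up on a short stretch was not tested. In the HEK293 lists described below, all 45 frames of ENSMUST00000038863 lay within 378 nt downstream of its coding region. Whether reads from elsewhere were assigned to either ID was not tested, so these RPKM are not taken as the abundance of either mRNA. By the lengths recovered with the reads, 3894 nt and 2862 nt, they took 17.2% and 7.90% of all fed reads.

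The levels below this pair dropped steeply. Rank 3 was at 10573 RPKM in fed, 10861 in fasting and 10913 in fasting with trans-RNA, and so differed least between libraries among the leading members. Rank 4 was at 9440, 7880 and 9764, and rank 5 at 7410, 6001 and 5042. Of the 10 highest transcripts in fed, 9 were among the 10 highest in fasting and 9 in fasting with trans-RNA. The one that left was rank 6, ENSMUST00000189446, described below.

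As a share of the library the 48 members together moved little. They took 54.4% of the summed RPKM in fed, 56.4% in fasting and 55.6% in fasting with trans-RNA, where summed RPKM weighs each transcript per length. Counted as reads, without regard to length, they took 49.5% of the fed library (49.50 to 49.56 by an exact 95% interval), 52.3% of fasting (52.30 to 52.36) and 51.0% of fasting with trans-RNA (50.93 to 50.98). Both measures were lowest in fed and highest in fasting.

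The difference in the summed share between fed and fasting lay in the reads assigned to the leading pair, with the limit on their position given above. Ranks 1 and 2 went from 19.9% of summed RPKM in fed to 23.8% in fasting, and were at 21.4% in fasting with trans-RNA. Ranks 3 to 10 were at 14.4%, 14.5% and 14.2% in the same order, and ranks 11 to 48 at 20.1%, 18.1% and 19.9%. With the leading pair taken out of both members and total, the other 46 members held 43.1% in fed, 42.8% in fasting and 43.4% in fasting with trans-RNA. Since RPKM of a library share 1 total, a larger share of the leading pair lowers the RPKM of all other transcripts, and its part in the ratios below was not tested. In bulk RNA, fewer cells of a type and less RNA per cell cannot be told apart.

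**Figure D2:**
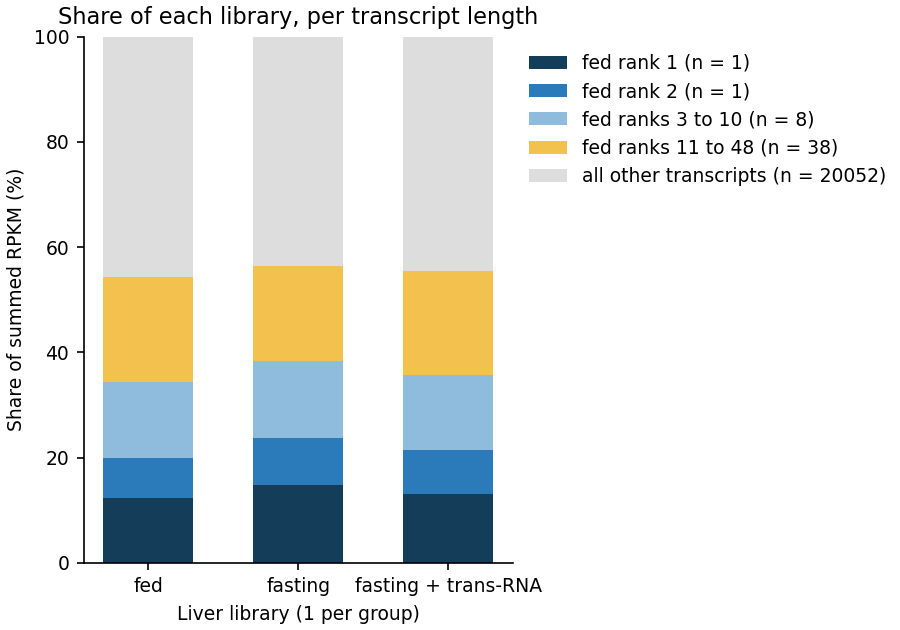
Share of the summed RPKM in percent for each liver library, stacked for ranks 1 and 2, ranks 3 to 10, ranks 11 to 48 and the other 20052 transcripts, with 1 library per bar. The members end at 54.4% in fed, 56.4% in fasting and 55.6% in fasting with trans-RNA, and the darkest blocks of rank 1 are 12.3%, 14.8% and 13.1%.

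By the rule all members were at 1000 RPKM or more in fed, so in the fasted libraries they could only stay or drop out. Newcomers were by the same rule under 1000 RPKM in fed, and nothing is read from these overlaps. In the fasting library 50 of the 20100 transcripts reached 1000 RPKM, and 41 of them were members. That is 85.4% of the members and 82.0% of the fasting list. The 9 newcomers lay between 133 and 959 RPKM in fed. In fasting with trans-RNA 46 transcripts reached the threshold, and 43 were members, or 89.6% of the members and 93.5% of that list. Its 3 newcomers lay between 460 and 959 RPKM in fed. In all 3 libraries 40 members were at or above the threshold, and 4 were below it in both fasted libraries.

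Fasting was set against feeding by log2 ratios of RPKM with a pseudocount of 1, on which scale all ratios below are given. The fed level chose the members, so these ratios are a description and nothing is read from their counts. Of the 48 members, 26 were lower in fasting and 22 (45.8%) higher, with a median log2 ratio of -0.19 and a range from -3.24 to 0.89. The median over all 10200 transcripts with at least 1 RPKM in at least 1 of both libraries was -0.28. The members' median lay 0.085 above it, with 27 members above and 21 below that median. Of these 10200 transcripts 33.1% were higher in fasting. Among those with at least 100 RPKM in 1 of both libraries 41.2% were higher, and their median was -0.19, like that of the members. At 2-fold or more, 7 members were lower, where 10.5% of all transcripts tested were lower, and 0 were higher, where 4.36% were. Among transcripts with at least 100 RPKM in 1 of both libraries, 12.5% were 2-fold lower and 14.2% 2-fold higher. The split narrows with the scaling: with ratios centred on the median of all transcripts 4 members were 2-fold lower and 2 higher. Scaling by the median of ratios gave the same 4 and 2 in number. The shares of all transcripts called under these scalings were not computed, and the shares above belong to ratios without them.

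Among the members lower in fasting, ENSMUST00000067492 of rank 20 (553 nt) stood apart. It was at 2400 RPKM in fed, 253 in fasting and 1758 in fasting with trans-RNA, from 15230, 1513 and 12434 reads. The fasting library was the low one, and fed and trans-RNA were both far above it. Its log2 ratio of fasting over fed was -3.24 (-3.32 to -3.17), its RPKM without the pseudocount was 9.48-fold lower, and its rank went from 20 to 151.

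ENSMUST00000182659 of rank 46 (3205 nt) was at 1122 RPKM in fed, 252 in fasting and 376 in fasting with trans-RNA. Both fasted libraries were far below fed for this transcript, at a log2 ratio of -2.15 (-2.19 to -2.12) in fasting. ENSMUST00000189446 of rank 6 (803 nt) was at 6156, 1395 and 2574 RPKM in the same order. It thus left the leading members, at rank 31 in fasting and 19 in fasting with trans-RNA.

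The other 4 members that were 2-fold lower in fasting differed less. Rank 45, at 9320 nt the longest member, was at 1127 RPKM in fed, 454 in fasting and 771 in fasting with trans-RNA. Rank 39 was at 1324, 615 and 990 RPKM, and rank 34 at 1475, 701 and 1266. Rank 43 was at 1237, 614 and 873 RPKM. For each of these 4 the fed level was the highest and the fasting level the lowest.

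The members highest in fasting relative to fed were ENSMUST00000026827 and ENSMUST00000052865. ENSMUST00000026827 of rank 23 (1243 nt) was at 2249 RPKM in fed, 4164 in fasting and 4239 in fasting with trans-RNA. Its log2 ratio of fasting over fed was 0.89 (0.87 to 0.91), and both fasted libraries lay close together. ENSMUST00000052865 of rank 38 (2907 nt) was at 1351, 2341 and 3379 RPKM, a log2 ratio of 0.79 (0.78 to 0.81) for fasting over fed. For this transcript the fed library was lowest and fasting with trans-RNA highest. At 1.5-fold or more, 5 members were higher in fasting and 15 lower, and 28 (58.3%) lay within 1.5-fold. At a log2 ratio of -0.6 or less lay 31.25% of the members, 27.8% of all transcripts tested and 28.5% of those with at least 100 RPKM. At 0.6 or less lay 89.6%, 89.4% and 79.1% in the same order, and nothing is read from these counts. Of all transcripts tested 60.4% lay within 1.5-fold, and 50.4% of those with at least 100 RPKM in 1 of both libraries.

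Other abundant members were also higher in both fasted libraries. Rank 8 (819 nt) was at 5093 RPKM in fed, 7434 in fasting and 8009 in fasting with trans-RNA, and held rank 5 in both of the fasted libraries. Rank 9 was at 4380, 6170 and 5772 RPKM. Rank 21 (6865 nt) was at 2265, 3476 and 3353, and rank 35 at 1431, 2284 and 2295. In each of these 4 the fed library was the lowest, by less than 2-fold.

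Members lower in both fasted libraries, though by less than 2-fold, included rank 13, at 3282 RPKM in fed, 2014 in fasting and 1979 in fasting with trans-RNA. Rank 18 was at 2569, 1613 and 1573 RPKM, and rank 24 at 2085, 1135 and 1060. In these 3 both fasted libraries lay close together. Rank 16 had another pattern, with 2608 RPKM in fed, 1574 in fasting and 2651 in fasting with trans-RNA, so that fasting alone was low. Ranks 8, 9, 13, 16, 18, 21, 24 and 35 were picked after their values were seen, to show the range of patterns.

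**Figure D3:**
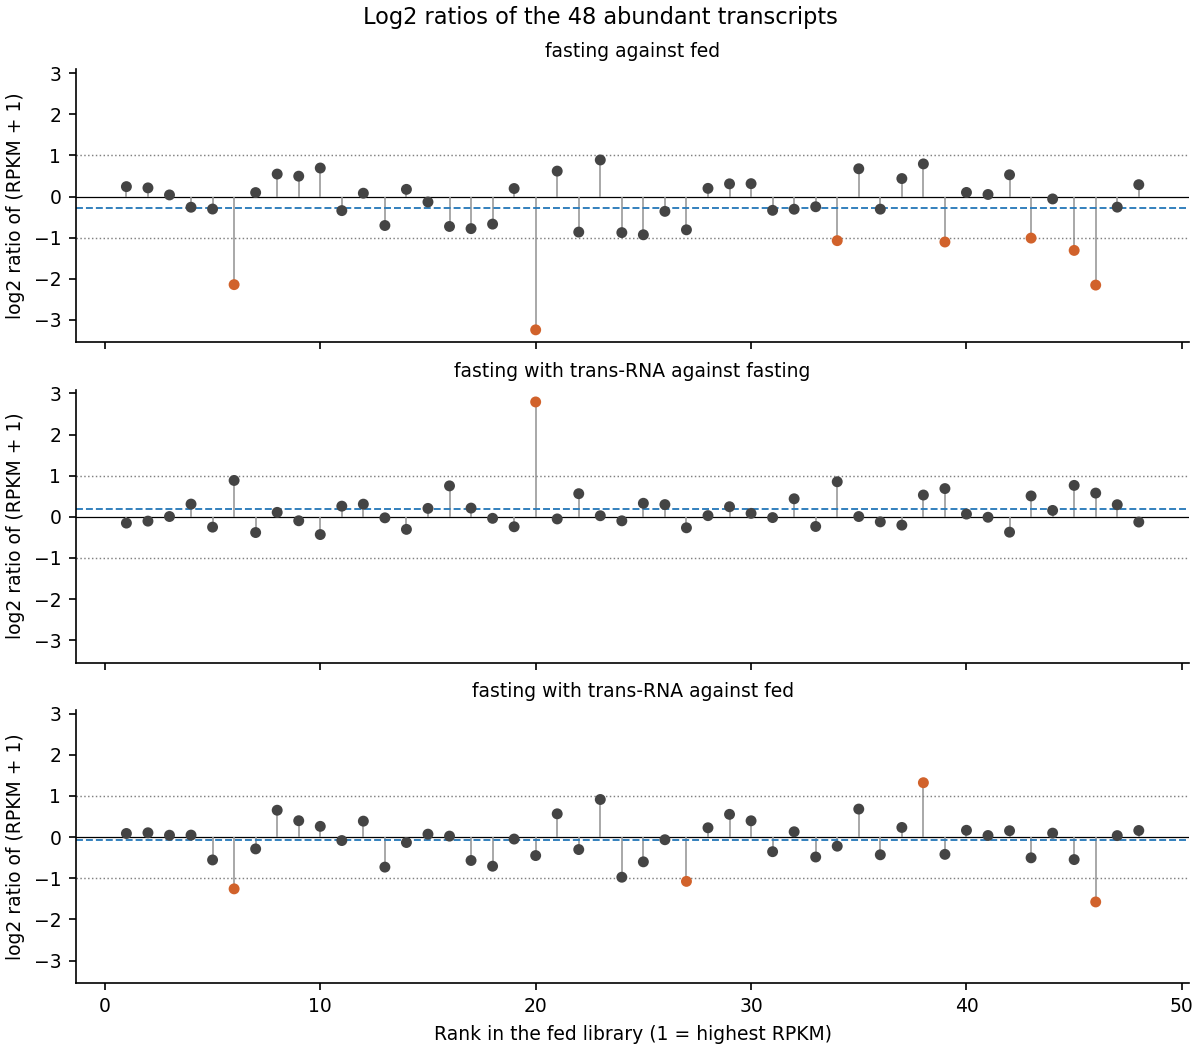
Log2 ratio of (RPKM + 1) for each member against its rank in the fed library, in 1 panel per comparison of 2 libraries. Dotted lines mark 2-fold, members beyond them are coloured (7 in the upper panel, 1 in the middle and 4 in the lower), and the dashed line is the median of all transcripts tested, at -0.28, 0.18 and -0.076. The fasting library enters both the upper and the middle panel and the fed library both the upper and the lower, so the panels are not independent.

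Fasting with trans-RNA was then set against fasting alone, a difference that holds both the trans-RNA and the act of transfection. Neither library was used to choose the members. Of the members 28 (58.3%) were higher and 20 lower, with a median log2 ratio of 0.047 and a range from -0.43 to 2.79. Higher were also 65.8% of all transcripts tested and 50.0% of those with at least 100 RPKM in 1 of both libraries. The members differed little here, and 42 of 48 lay within 1.5-fold. Among all 10017 transcripts tested 76.4% lay within 1.5-fold, and 73.3% of the 360 with at least 100 RPKM in 1 of both libraries did. The median over all transcripts was 0.18, so the members' median lay 0.13 below it, with 20 members above and 28 below. The sign of the members' median turns when ratios are centred. Over the 360 transcripts with at least 100 RPKM in 1 of both libraries the median was -0.00086, slightly below that of the members. At 2-fold or more, 1 member was higher, or 2.08%, where 4.55% of all transcripts tested were higher, and 0 were lower, where 1.19% were. Among transcripts with at least 100 RPKM in 1 of both libraries, 3.61% were 2-fold higher and 3.89% 2-fold lower.

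The 1 member beyond 2-fold was ENSMUST00000067492, whose 3 levels are given above. Its log2 ratio of fasting with trans-RNA over fasting was 2.79 (2.72 to 2.87), and its RPKM without the pseudocount was 6.95-fold higher. The next highest was ENSMUST00000189446, at 1395 RPKM in fasting and 2574 with trans-RNA, a log2 ratio of 0.88 (0.85 to 0.92). The members with the lowest ratios were ENSMUST00000036572 of rank 10 and ENSMUST00000110621 of rank 7. ENSMUST00000036572 was at 3607 RPKM in fed, 5830 in fasting and 4323 with trans-RNA, a log2 ratio of -0.43 (-0.44 to -0.42) over fasting. ENSMUST00000110621 was at 5236, 5595 and 4293 RPKM, a log2 ratio of -0.38 (-0.40 to -0.37) over fasting.

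The 7 members that were 2-fold lower in fasting than in fed had log2 ratios from 0.51 to 2.79 for fasting with trans-RNA over fasting, and from -1.58 to -0.22 for fasting with trans-RNA over fed. They were picked for a low value in the fasting library, which also enters the first of these ratios with the opposite sign, so nothing is read from that direction. Against fed, whose level chose the members, their values with trans-RNA are side by side with those under fasting in the sentences above.

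Fasting with trans-RNA against fed shares the fed library with the rule and is again a description. Here 25 members (52.1%) were higher and 23 lower, with a median log2 ratio of 0.030 beside -0.076 over all 10347 transcripts tested. Of these transcripts 43.2% were higher, and 39.8% of those with at least 100 RPKM in 1 of both libraries. The median of the latter was -0.11. Within 1.5-fold lay 37 members, or 77.1%. The share was 76.7% of all transcripts tested and 76.6% of those with at least 100 RPKM in 1 of both libraries. At 2-fold or more, 3 members were lower, where 3.19% of all transcripts tested were lower, and 1 was higher, where 3.26% were. Among transcripts with at least 100 RPKM in 1 of both libraries, 4.57% were 2-fold lower and 5.65% 2-fold higher in this comparison. The lower ones were ENSMUST00000182659 at -1.58, ENSMUST00000189446 at -1.26 and the member of rank 27 at -1.08, which was at 2004 RPKM in fed, 1143 in fasting and 950 with trans-RNA. The higher one was ENSMUST00000052865 at 1.32, or 2.50-fold.

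**Figure D4:**
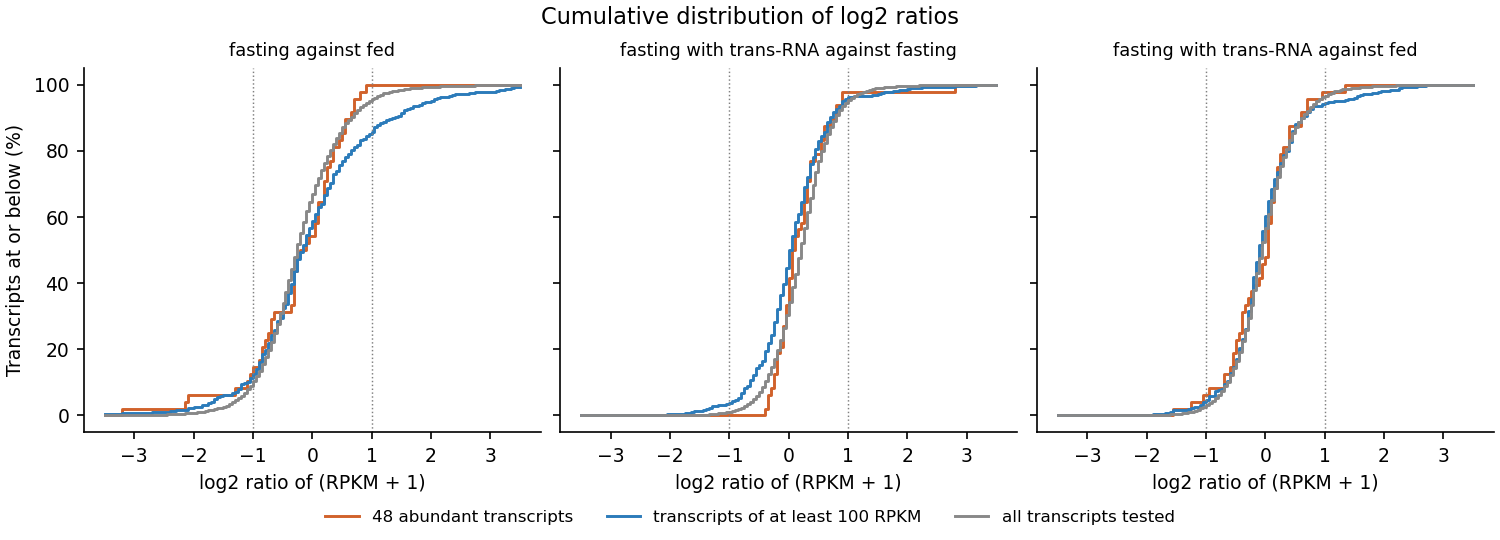
Cumulative percentage of transcripts at or below each log2 ratio of (RPKM + 1), in 1 panel per comparison, for the 48 members, for transcripts with at least 100 RPKM in 1 of both libraries and for all transcripts tested. Dotted lines mark 2-fold. In the middle panel the curve of the members starts at -0.43 and holds 1 member beyond 2-fold, at 2.79.

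The members' recovered length had a median of 2077 nt and ran from 449 to 9320 nt, and 10 of 48 (20.8%) were under 1000 nt. Among the 2172 transcripts with at least 1000 reads over the 3 libraries, the members included, the median was 3361 nt and 6.68% were under 1000 nt. RPKM divides by length, so length enters the rule, and a true length can be a multiple of the recovered one, in which case the true reads are that multiple too. The shortest member, of rank 4 at 449 nt, was among the most abundant.

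The 10 members under 1000 nt had a median log2 ratio of -0.28 for fasting over fed and 0.37 for fasting with trans-RNA over fasting. In the latter comparison the 10 ranged from 0.11 to 2.79, so each was above 0, but the lowest lay under the median of 0.18 over all transcripts. Of all transcripts tested 65.8% were above 0 there. Other transcripts under 1000 nt were not set apart, so nothing is read from this about short members. The 38 longer ones had medians of 0.044 and -0.015. Both comparisons hold the fasting library, with opposite sign, so the values mirror each other in part. For fasting with trans-RNA over fed the medians were 0.060 for the short members and -0.012 for the longer ones. Over all 48 members the relation with length was weak, with Pearson's r of 0.10 and -0.23 against log2 length and Spearman's rho of -0.012 and -0.048 against length, given as a description across transcripts of the same libraries.

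A separate view of some members came from the Ribo-seq libraries of HEK293, for which the authors deposited lists of called open reading frames under mouse transcript IDs. Reads of a human line placed under mouse IDs cannot be taken as a measure of liver translation, although GRCm39 is the build that the submitters' processing notes name for them too. The lists named 10 of the 48 members (20.8%), against 16.5% of all liver transcripts and 18.8% of the 400 with at least 100 RPKM in any liver library. The frames of members held 0.0761% of the reads assigned in the control list, 0.177% in starvation, 0.0769% in the first trans-RNA library and 0.201% in the second. Among the members named above, the lists place ENSMUST00000182659 under gene ENSMUSG00000032580 on chromosome 9, and ENSMUST00000052865 under the joined entry ENSMUSG00000050912_ENSMUSG00000093615 on the same chromosome, each with truncated coding frames in all 4 lists.

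The liver transcript with the highest RPKM had the most frames among the members listed, and all of them lay downstream of its coding region. ENSMUST00000038863, listed under gene ENSMUSG00000035202, had 12 frames in control, 13 in starvation, 9 in the first trans-RNA library and 11 in the second. All 45 were of the downstream class, in a stretch of 378 nt on chromosome 9, from 123290879 to 123291256 on the plus strand of GRCm39. Downstream frames were 2.40%, 2.14%, 2.69% and 1.95% of all frames in these lists. The estimated reads on this stretch were 3523, 3676, 2950 and 6051 in the same order. These counts are not scaled, and all frames of the lists held 7060323.1, 2589370, 5256695.8 and 3783672.5 reads. Nothing is therefore read from their differences between lists. Where along ENSMUST00000038863 its liver reads lay could not be seen, and whether its RPKM reflects the level of its mRNA was not tested.

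**Figure D5:**
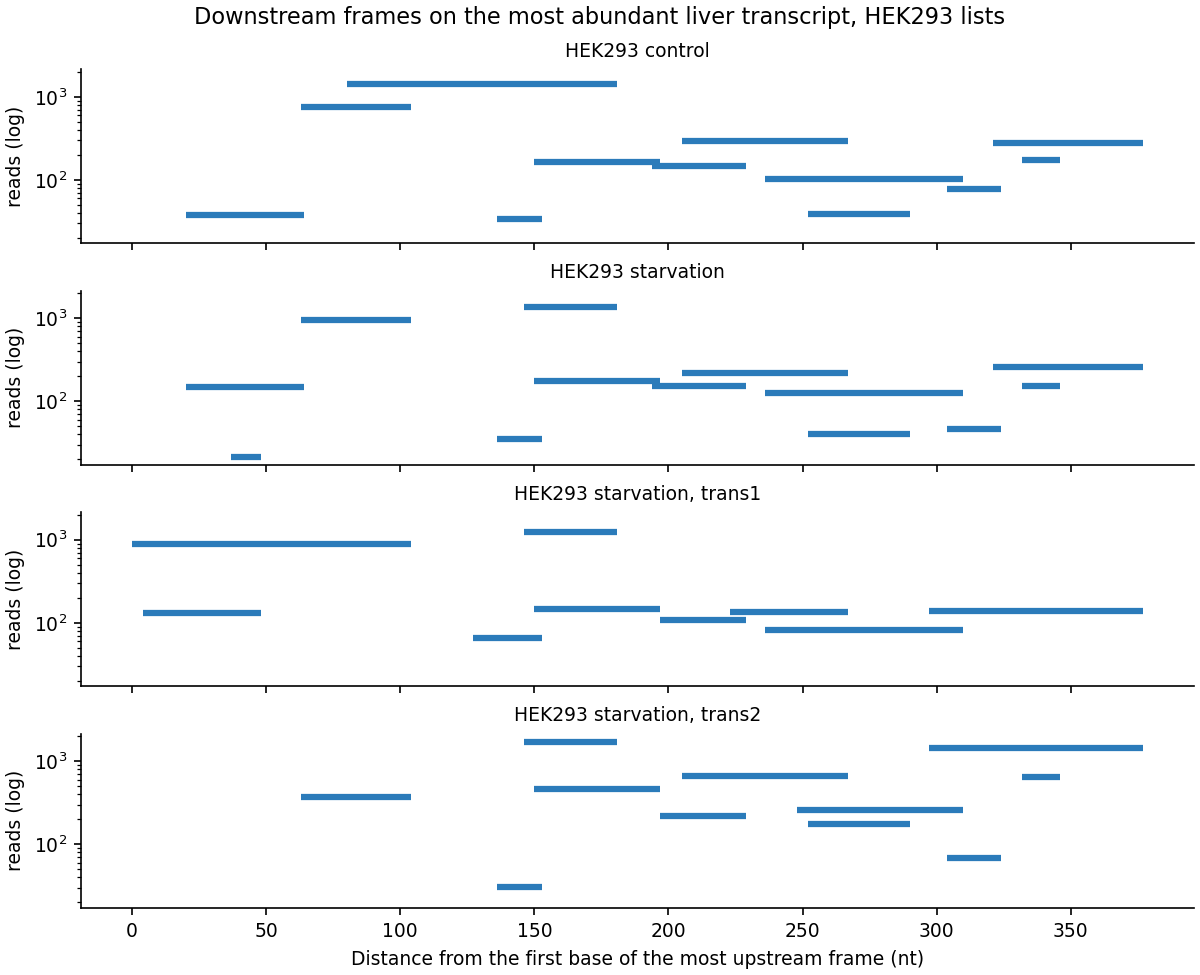
Frames called downstream of the coding region of ENSMUST00000038863 in the 4 HEK293 Ribo-seq lists, as bars from their first to their last base in nucleotides from the most upstream frame, against the estimated reads of each frame on a log axis. Frames overlap one another and lie within 378 nt, with the highest single frame at 1411 reads in control, 1349 in starvation, 1254 in the first trans-RNA library and 1721 in the second. Reads are not scaled for the totals of the lists.

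ENSMUST00000030127, with the next highest RPKM, was listed under the joined entry ENSMUSG00000028420_ENSMUSG00000065887 on chromosome 4. Its 7 frames were of the downstream and internal classes, and none was a coding frame. A downstream frame of 9 nt, from 53860759 to 53860767, was called in all 4 lists. It held 57.0, 14.3, 13.9 and 509 reads in control, starvation, the first and the second trans-RNA library, not scaled for the list totals. Both leading transcripts were thus seen in these lists by short frames outside their annotated coding frame. Over the other members listed, truncated coding frames were the most frequent class, with 24 frames.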

How the data were processed

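PolyA RNA of 3 mouse liver libraries (fed, fasting, fasting with trans-RNA) was analysed, 1 per group. Tools named in the submitters' processing notes, without role or order, are STAR 2.7.10a, Bowtie 1.2.3, cutadapt 2.8 and bcl2fastq 2.20.0.422, with the build GRCm39. The annotation and the counting method are not given in the sources used here, so reads shared by overlapping or near-identical genes cannot be told apart. For each transcript of a liver library the authors deposited an RPKM and a TPM value, per the file headers. The deposited TPM column equals RPKM times 1 factor per library, so that it sums to 1000000. The authors deposited frame lists of the HEK293 Ribo-seq libraries with an expected count of reads per frame, estimated by the frame caller, which the file names give as PRICE.

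A transcript missing from a table was set to 0. Log2 ratios used RPKM plus a pseudocount of 1 and transcripts with at least 1 RPKM in at least 1 of both libraries, and 2-fold was a rule of size. Depths were found as the smallest whole numbers whose ratios give the most frequent RPKM ratios of low transcripts, and reads and lengths as the smallest whole numbers, which cover 97.6% to 97.7% of the depths. A true length can be a multiple of a recovered one. The recovery was run on data simulated from the recovered depths and lengths, so this run cannot show whether those are the true ones. Frame starts were raised by 1 to count from 1, since all 88 frame lengths are then multiples of 3. No test was run with 1 library per group. Transcripts named by ID are the 2 highest and 2 lowest ratios in fasting against fed and in fasting with trans-RNA against fasting, and the 2 highest fed levels, which were added after their values were seen. The lists fixed by gene symbol were not used, as no mouse symbols were at hand. The members and settings were chosen with earlier results of these data known. Python 3.11.15, numpy 2.4.6, pandas 2.3.3, scipy 1.17.1 and matplotlib 3.10.9 were used.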

Additional observations from a re-analysis of the deposited data

How the results depend on the processing

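No paired analysis was possible because each group holds 1 library, and no replicate could be left out. Depth is not the limit for these transcripts, but the lack of replicates is. The threshold set the number of members, with 89 at 500 RPKM, 27 at 2000 RPKM and 117 at a TPM of 1000. Counted in reads, the share of the members was 49.5% in fed, 52.3% in fasting and 51.0% in fasting with trans-RNA. As a share of summed RPKM it was 48.1%, 48.8% and 48.8% without the highest transcript, and 54.5%, 56.5% and 55.7% with the 4 transcripts left out of the total.

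For fasting against fed, 1.5-fold gave 5 members higher and 15 lower, and 3-fold gave 3 lower. Centred ratios gave 2 higher and 4 lower, as did scaling by the median of ratios, without the share of all transcripts under either scaling. The threshold of 500 RPKM gave 1 higher and 12 lower, and that of 2000 RPKM gave 2 lower. Choosing the members at 1000 RPKM in fasting instead gave 4 higher and 1 lower. The median log2 ratio turned positive with centring (0.085), with the median of ratios (0.066) and with members chosen in fasting (0.18), and was -0.16 in TPM and -0.26 at 2000 RPKM. Members chosen in fasting are picked on a library that enters this ratio, so nothing is read from that turn.

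For fasting with trans-RNA against fasting, 1.5-fold gave 6 higher, and members chosen in fasting 0 higher and 1 lower. The median log2 ratio was -0.13 with centring, -0.21 with the median of ratios, 0.0070 at 2000 RPKM and -0.031 with members chosen in fasting, so its sign depends on the scaling. ENSMUST00000026827 turned to -0.15 with centring and -0.23 with the median of ratios. For fasting with trans-RNA against fed, 1.5-fold gave 4 higher and 7 lower, 3-fold 0 and 0, 500 RPKM 5 lower, 2000 RPKM 0 higher and members chosen in fasting 4 higher. Its median was 0.11 with centring, -0.084 at 500 RPKM, -0.064 at 2000 RPKM and 0.10 with members chosen in fasting. The cause of these shifts was not tested. A further 49 values of the main counts, medians and shares under other settings, not given here, kept a count within 1.5 times of the main one or a value within its counting error.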
